A study of Mus musculus with 8 samples.

Results

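Livers were set apart by a single transcript, Iigp1, which encodes an interferon-inducible GTPase that acts against intracellular pathogens. The livers were chosen by the intensity of an Iigp1 probe set: the 4 in which it lay above 5000 (mice 2, 3, 6 and 8) were set beside the 4 in which it lay below (mice 1, 4, 5 and 7), out of 8 livers in all. The Iigp1 intensities that chose them were 10908, 11521, 15220.4 and 14442 in mice 2, 3, 6 and 8, and 3256, 1276, 1462 and 839.4 in mice 1, 4, 5 and 7. Just inside the threshold lay mouse 2 at 10908 and just outside it mouse 1 at 3256, a ratio of 3.35. Because the sets were made from a measured value, the differences between them are described without a test, and genes of the interferon and MHC class II families serve only to characterise the sets.

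All 8 mice belonged to 1 labelled group, with the same genotype, diet and sex, and the labels give age only as a range shared by all. They were female Ames dwarf mice (df/df) fed a pelleted diet reduced by 30% against what freely fed dwarf females ate, with water always available, and were killed at 24 to 26 months. Ames dwarf mice carry a mutation that leaves the pituitary without the cells making growth hormone, prolactin and thyroid-stimulating hormone, in every tissue and from birth, so the diet is seen here only in animals lacking those hormones. Total RNA from whole frozen liver was hybridised to Affymetrix U74Av2 arrays, 1 array per mouse, and freely fed dwarfs and normal mice were not analysed here. Whether the livers differed in infection, housing or time of collection is not recorded in the labels.

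Hepatocytes make up most of the liver's mass and hold its metabolic and secretory programmes. Their mitochondria oxidise fatty acids to acetyl-CoA, which the citric acid cycle burns to supply electrons to the respiratory chain, while peroxisomes shorten very long chains and make bile acids together with the endoplasmic reticulum. Kupffer cells, the resident macrophages, sit in the sinusoids beside them, and interferons reaching the tissue act on hepatocytes and macrophages alike. In whole tissue, fewer cells of a type and less RNA per cell cannot be told apart.

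Values are intensities as deposited, and lists of values run in the order of mice 2, 3, 6 and 8 for the high-Iigp1 livers and mice 1, 4, 5 and 7 for the low-Iigp1 livers. A gene is called higher or lower here only where the 4 livers of one set all lay on the same side of the 4 livers of the other. Sizes are differences between the mean log2 intensities of the sets, high minus low. The array means without their extreme 2% were equal by scaling (500.4 on each), and correlations between arrays ran from 0.940 to 0.983. In mouse 5, a low-Iigp1 liver, the 3' over 5' ratio of the Gapdh control probes, a sign of RNA or labelling quality, was 2.67 against 0.79 to 1.07 in the other 7, while its actin ratio, 1.60, lay within the range of the others, between 1.45 in mouse 8 and 1.86 in mouse 2. The part of RNA quality in the results was not tested. Counts without mouse 5 are given where they bear on a result, although leaving out a mouse can only keep or raise such a count.

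The sets were first characterised by genes known to follow interferon. A second Iigp1 probe set, which shares probes with related transcripts, read 7128, 5511, 13351 and 9935 in the high-Iigp1 livers and 1390.2, 568.6, 585.4 and 497.3 in the others, and so kept the same split. Of 52 measured interferon-family genes 31 were higher with no overlap and 0 lower, with a median difference of 1.27. Iigp1 itself is among the 52 and the 31, and its separation was fixed by the choice of livers. It also enters the median and the list score. Of 8 MHC class II pathway genes, which present antigen on macrophages, dendritic cells and B cells, 4 were higher and the median difference was 2.03. The interferon list score, the mean log2 deviation of its genes, was 1.47 and 1.01 in mice 6 and 8 and 0.41 and 0.03 in mice 3 and 2, against -0.15 in mouse 1 and -0.96 to -0.89 in mice 4, 5 and 7. The high set thus held a pair of livers far above the rest (mice 6 and 8) and a pair nearer to mouse 1.

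Outside both families 4809 named genes were bright enough to compare, and among those that separated by set, lower genes outnumbered higher ones. Of these genes 140 (2.91%) were higher with no overlap between the sets and 202 (4.20%) were lower. With a size of at least 1.5-fold required as well, 64 genes (1.33%) were higher and 22 (0.457%) were lower, so the higher group held the larger differences. The share of lower genes among those with no overlap, 59.1%, was 73.6% (99 higher, 276 lower) when arrays were scaled to a common median, and 69.4% (108 higher, 245 lower) after quantile normalization. The all-gene median difference was -0.02 as deposited, -0.07 with the common median and -0.05 after quantile normalization.

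The share of lower genes was larger among brighter transcripts. From the dimmest to the brightest quintile of the genes, 1.77%, 2.18%, 3.23%, 5.72% and 8.11% were lower with no overlap, whereas 3.53%, 2.29%, 3.12%, 2.60% and 3.01% were higher. The median difference ran from 0.05 in the dimmest quintile to -0.11 in the brightest. Whole arrays also differed in shape. Mice 6 and 8 had the lowest mean intensities (706.2 and 706.6) and the highest medians (173.95 and 177). Mouse 5 had the highest mean (759.0) and the lowest median (145.55). The part of array shape in these shares was not tested. The lists classed as hepatocyte held 501 measured genes, of which 52 (10.4%) were lower and 17 (3.39%) higher, with a median difference of -0.12. These shares stand beside 8.11% lower and 3.01% higher in the brightest quintile, whose median was -0.11. The citric acid cycle list, described below, gave 13 of the 52 lower genes. The hepatocyte lists include the fetal liver and tumour-associated list, which gave 5 of the 17 higher genes, several also known from leukocytes or duct cells. Cfp, made by myeloid cells, is another of the 17. For the counts below, lower genes are to be read beside 4.20% over all genes, or 8.11% where most members of a list are in the brightest quintile, and higher genes beside 2.91% over all genes, or 3.01% in that quintile.

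**Figure D1:**
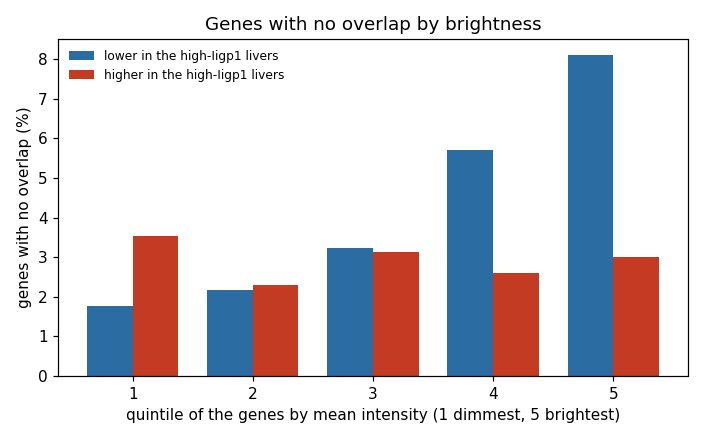
Share of genes (%, vertical axis) with no overlap between the 4 high-Iigp1 and the 4 low-Iigp1 livers, by quintile of mean intensity (horizontal axis), for lower (blue) and higher (red) genes outside the interferon and MHC class II families. The lower share runs from 1.77% in the dimmest quintile to 8.11% in the brightest, and the higher share lies between 2.29% and 3.53%.

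Among genes with no overlap, the largest difference in the lower direction belonged to Thrsp (Spot 14), a regulator of fatty acid synthesis whose transcription responds to thyroid hormone and carbohydrate. Its intensities were 2874, 2842, 768.8 and 2019 in the high-Iigp1 livers and 4682, 5071, 8548 and 4342 in the low-Iigp1 livers, 2.89-fold lower. Mouse 6 was far below all others and mouse 5 far above. Tfrc, the transferrin receptor that takes iron into cells, read 3264, 1452, 1140.3 and 1297 against 4448, 3333, 3459 and 3706, 2.28-fold lower. Mouse 2 lay just under the lowest of the low-Iigp1 livers, at 3264 against 3333 in mouse 4. Retsat, the retinol saturase, read 3053, 2087, 1001 and 1396 against 3069, 3842, 3719 and 4253, 2.14-fold lower, and here the gap was as narrow, between mice 2 and 1.

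Other large differences in the lower direction were in Rdh16 (a retinol dehydrogenase, 1.72-fold), Vnn1 (a pantetheinase induced through PPAR alpha, 1.81-fold), Oat (ornithine aminotransferase, 1.64-fold), Isca1 (mitochondrial iron-sulfur cluster assembly, 1.73-fold) and Tcp1 (a subunit of the cytosolic chaperonin, 1.66-fold). Isca1 read 895.5, 702.6, 903.8 and 512.3 in the high-Iigp1 livers and 1259, 1176, 1334 and 1309 in the others, the latter spanning 1176 to 1334. Oat, which turns ornithine into a glutamate precursor, read 9108, 10594, 4771 and 7176 against 12815, 13506, 11445 and 11919. Mouse 6 was lowest in both Oat and Rdh16. Matk (1.81-fold), Tmem245 (1.66-fold), Tnnt1 (2.32-fold) and Sac3d1 (2.11-fold) were also among the 12 largest. The Tnnt1, Sac3d1 and Matk probe sets share probes with related transcripts, and the other probe sets of Tnnt1 and Sac3d1 differed by -0.07 and 0.20, so these names are uncertain.

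Among higher genes outside the families, most of the 12 largest are known from leukocytes and macrophages. Ms4a6c, a membrane protein of myeloid cells, read 99.9, 193.1, 864.6 and 520.4 in the high-Iigp1 livers and 92.2, 38.2, 35.3 and 49.8 in the others, 6.04-fold higher. Its dim end lies near the floor of 37.2, and its probe set shares probes with related transcripts. Cybb, the catalytic subunit of the phagocyte NADPH oxidase, was 4.98-fold higher, Itgb2, the leukocyte integrin beta-2 chain, 4.72-fold, and Mpeg1, the pore-forming perforin-2 of macrophages, 4.51-fold. Mice 2 and 1 nearly touched in Cybb (161 against 158.5) and Itgb2 (99.7 against 85.8). So they did in Cd48 (88.9 against 85.6) and Fgl2 (181.2 against 177.4). Mice 6 and 8 read 479.7 and 1132.3 in Cybb and 1016.7 and 513.4 in Itgb2. Il18bp (the secreted antagonist of interleukin-18, 4.87-fold) and Fgl2 (3.52-fold) are known to be interferon-inducible though not on the list left out, as are Uba7, Ube2l6, Trim21, Shisa5 and Ogfr, which were also higher. Without these genes and those with H2- symbols, 4788 genes were compared, with 133 higher and 202 lower. The genes named here were all among the higher ones, so the smaller count follows from leaving them out. How many other interferon-inducible genes remain among the higher ones was not tested. Ctsc, Cd48, C1qa, Hcls1, Bcl3 and Tmsb4x, at 2.81 to 3.56-fold, completed the 12. Of the 12, Ms4a6c, Cybb, Itgb2, Fgl2, Cd48 and Hcls1 were bright enough to compare only through the high-Iigp1 livers.

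**Figure D2:**
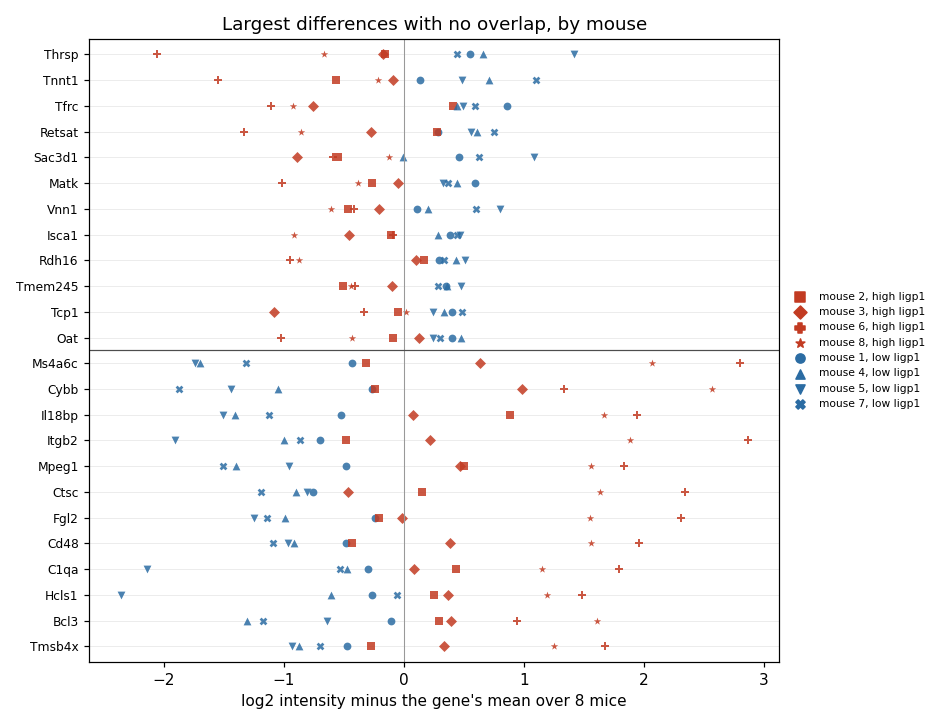
Log2 intensity relative to each gene's average across mice (horizontal axis) for the 12 largest differences in each direction with no overlap, lower in the high-Iigp1 livers above the line and higher below it. Red symbols are the 4 high-Iigp1 livers and blue symbols the 4 low-Iigp1 livers, 1 symbol shape per mouse. Mice 6 and 8 lie at the far end for most higher genes.

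The citric acid cycle had the lowest median and the largest share of lower genes (72.2%) of the 44 lists outside the families, and it was picked for this after the values of all lists had been seen. Its list named 21 genes, of which 20 had a probe set and 18 were bright enough. Of these 18, 13 were lower with no overlap, 0 were higher, and all 18 had a lower mean, with a median difference of -0.33 against -0.02 over all genes and -0.11 over the brightest quintile. Within the brightest quintile 10 of its 14 members were lower, beside 8.11% of all genes there. The differences were small, from -0.58 to -0.05, and all 18 were under 1.5-fold.

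At the entry of the cycle, Cs (citrate synthase) read 1194, 1242, 1242 and 1114 in the high-Iigp1 livers and 1445, 1565, 1558 and 1309 in the low-Iigp1 livers, 1.22-fold lower. Idh2, the mitochondrial NADP-dependent isocitrate dehydrogenase, read 2699.6, 2546, 2389 and 1800.2 against 3111, 3097, 3920.1 and 3016, 1.40-fold lower, with mouse 8 lowest and mouse 5 highest. Of the NAD-dependent isocitrate dehydrogenase, both measured subunits were lower, Idh3a at 1.26-fold and Idh3g at 1.22-fold. In Idh3a the sets nearly touched, at 591.1 in mouse 8 and 598.9 in mouse 7. Idh1, the cytosolic form that also supplies NADPH for lipid synthesis, overlapped, with 3439, 4133, 3238 and 3634 against 3589, 4624, 3091 and 3796 and a difference of -0.05.

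In the next steps, Ogdh and Dld, 2 components of the 2-oxoglutarate dehydrogenase complex, were 1.19-fold and 1.20-fold lower. Dlst, the remaining component, overlapped at -0.25, since mouse 2 at 1875 lay above mouse 1 at 1839.7. Suclg1, the shared alpha subunit of succinyl-CoA ligase, read 4617, 4626, 4326 and 3634 against 5432, 6155, 6596 and 5383, 1.37-fold lower. Its GTP-forming and ATP-forming partners Suclg2 and Sucla2 were 1.32-fold and 1.25-fold lower, so every subunit of that enzyme separated by set.

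Succinate dehydrogenase, which is both a cycle enzyme and complex II of the respiratory chain, had 3 of 4 subunits lower. Sdhd, a membrane anchor, read 6572, 5544, 4887 and 5312 against 8336, 6748, 11283 and 6849.7, 1.46-fold lower, with mouse 5 well above the rest. Sdha, the flavoprotein, read 1076, 925.5, 941.7 and 966.9 against 1157, 1252, 1437 and 1334, 1.32-fold lower. Sdhb, the iron-sulfur subunit, was 1.25-fold lower. Sdhc, the other anchor, overlapped, because mouse 2 at 7063 exceeded mouse 7 at 6428, although its difference was -0.37.

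Fh1, fumarase, had the largest difference of the list. It read 3460.1, 3262, 3013 and 2839.5 in the high-Iigp1 livers and 4098, 4537, 5689.9 and 4619 in the low-Iigp1 livers, a difference of -0.58, with log2 SDs of 0.13 and 0.20 (n = 4 each). The last step differed less clearly. Mdh2, mitochondrial malate dehydrogenase, read 4619, 5309.6, 4189 and 4209 against 5611, 5563, 6105 and 5218 and overlapped narrowly between mice 3 and 7. Mdh1, the cytosolic form, was at 319.3, 331.5, 263.8 and 318.5 against 328.8, 272.3, 303.7 and 395.3, a difference of -0.07. The 3 smallest differences in size therefore included both cytosolic enzymes of the list, Idh1 and Mdh1, together with Dlst.

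The score of the list was -0.05, -0.12, -0.26 and -0.24 in mice 2, 3, 6 and 8 and 0.13, 0.13, 0.29 and 0.12 in mice 1, 4, 5 and 7, with no overlap. Mouse 5 held the highest value of 11 of the 18 genes and mouse 8 the lowest of 8. Without mouse 5 the count of lower genes was 13, and without both mice 6 and 8 it was again 13, with a median of -0.26. Leaving out mice cannot lower such a count, so these 2 counts do not show that it is stable. With all 8 mice the count was also 13 with every other scaling, floor and filter tried. In 2 genes of the list, Sucla2 and Sdhb, the probe set shares probes with related transcripts, and without them 11 of 16 were lower. A second measured probe set existed for 1 gene, Dlst, and it too had a lower mean with overlap.

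**Figure D3:**
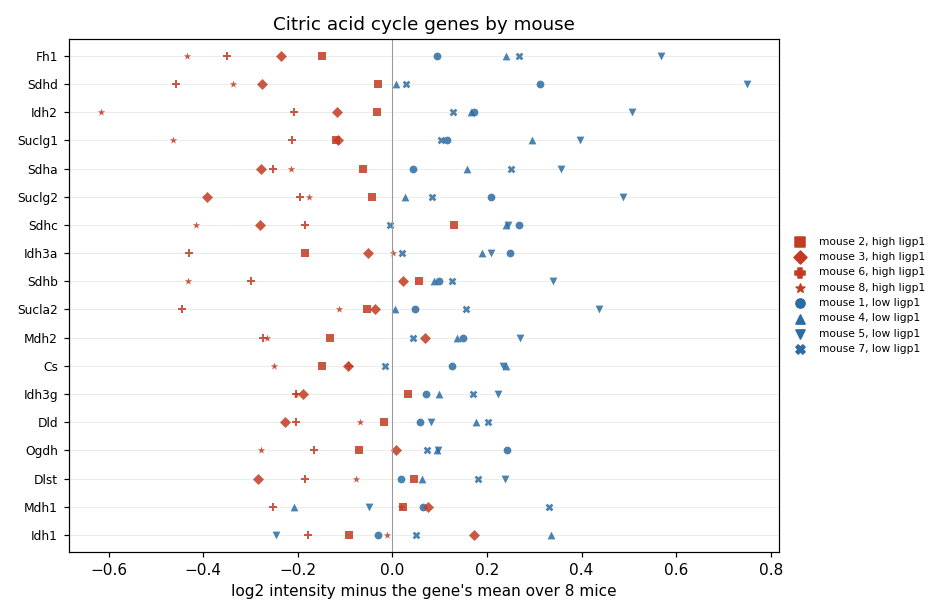
Log2 intensity relative to each gene's average across mice (horizontal axis) for the 18 measured citric acid cycle genes, ordered by the difference between sets. Red symbols are the 4 high-Iigp1 livers and blue symbols the 4 low-Iigp1 livers, 1 symbol shape per mouse. In 13 rows all red symbols lie left of all blue symbols, while Idh1 and Mdh1 at the bottom are mixed.

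Since these nuclear genes for mitochondrial proteins lay lower together, their promoters were read for the letters bound by 3 factors known from such genes. RefSeq promoters (GRCm38.p6) were found for 12 of the 13 lower genes and 4 of the other 5, and the 250 bases before each start were searched on both strands. The NRF-1 letters (GCGC, any base, then TGCGC) were in 3 of the 12 (Sucla2, Sdha and Sdhd) and in 0 of the 4, beside 10.1% of 3954 measured genes with a promoter and 4.23% of all 27025 genes. The estrogen-related receptor letters TNAAGGTCA were in 0 of the 12 (1.04% of measured genes), and the GABP letters CCGGAAGT were in 0 of the 12 (6.98% of measured genes). The search says only where these letters stand.
The 3 stretches are shown because they are the lower cycle genes holding NRF-1 letters, given in capitals, on the strand of the gene from 5′ to 3′. That of Sdha, at chr13:74350241-74350340 on the minus strand, holds 3 copies. Those of Sucla2, at chr14:73552686-73552785 on the plus strand, and of Sdhd, at chr9:50603874-50603973 on the minus strand, hold 1 each. All 3 lie within 124 bases before the annotated start.
Sdha: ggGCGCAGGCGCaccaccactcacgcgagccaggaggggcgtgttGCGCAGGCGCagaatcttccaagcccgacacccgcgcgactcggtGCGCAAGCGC
Sucla2: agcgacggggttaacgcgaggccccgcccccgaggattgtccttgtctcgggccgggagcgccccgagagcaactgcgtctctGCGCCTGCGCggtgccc
Sdhd: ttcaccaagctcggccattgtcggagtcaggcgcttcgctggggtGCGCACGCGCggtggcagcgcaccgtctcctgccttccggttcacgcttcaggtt

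Oxidative phosphorylation, the respiratory chain and ATP synthase fed by the cycle, showed smaller differences in the same direction. Of 49 measured genes 9 were lower with no overlap and 0 higher, while 47 had a lower mean, with a median of -0.24. Because 41 of the 49 are in the brightest quintile, 9 lower genes there are to be read beside 8.11%. By complex, 5 of 22 subunits of complex I, 3 of 8 of complex III, 1 of 8 of complex IV and 0 of 10 of the ATP synthase were lower. Ndufb10, a complex I subunit, read 3153, 3394, 2434 and 2694 in the high-Iigp1 livers and 3403, 4018, 4887 and 3435 in the others, 1.34-fold lower, and mouse 1 at 3402.6 lay just above mouse 3 at 3394.5. Uqcrb, a complex III subunit measured by probes shared with related transcripts, was 1.31-fold lower, and Ndufa6 1.30-fold.
The score overlapped, since mouse 3 at 0.08 stood with the low-Iigp1 livers. Without mouse 3 the count was 22 of 49, and without mouse 2 it was 15. Mice 6 and 8 were lowest, at -0.26 and -0.25, and mouse 5 highest at 0.27. With the common median, and with quantile normalization, 7 genes were lower.

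Mitochondrial fatty acid oxidation and ketone formation overlapped more. Of 21 genes 2 were lower, 0 higher, and 20 had a lower mean (median -0.28). Etfdh, which passes electrons from fatty acid oxidation to ubiquinone, read 2128, 2298, 1681 and 1889 against 2684, 2571, 3251 and 2573, 1.39-fold lower. Crat, carnitine acetyltransferase, read 450.4, 385.4, 251.4 and 347.5 against 583.9, 572.9, 556.5 and 497.2, 1.57-fold lower. Cpt1a, which admits long-chain fatty acids to mitochondria, overlapped by a little, with 6543, 6944, 6154 and 6492 against 6882, 7973, 12078 and 6991. The list median was -0.09 without mice 6 and 8.

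Targets of PPAR alpha, the fatty acid receptor of hepatocytes, and the peroxisomal and omega-oxidation enzymes gave 7 lower genes of 27, 0 higher, with a median of -0.29. Abcd3, a peroxisomal membrane transporter of fatty acids, read 2796, 2794, 2356 and 2522 in the high-Iigp1 livers and 3478, 4106, 5580.1 and 3636 in the low-Iigp1 livers, 1.58-fold lower. Its high set was tight, and mouse 5 was the outermost of the low set. Hsd17b4 and Ehhadh, both bifunctional enzymes of peroxisomal beta-oxidation, were lower by differences of -0.59 and -0.55. Pex2, needed to import enzymes into peroxisomes, was 1.45-fold lower, Slc27a2, a very-long-chain acyl-CoA synthetase, 1.38-fold, and Fabp1, the liver fatty acid binding protein, 1.27-fold. Vnn1, the remaining lower gene, was bright enough only through the low-Iigp1 livers.
Other members spread widely within the high-Iigp1 set. Cyp4a14, a fatty acid omega-hydroxylase, read 6542, 3572, 760.7 and 989.9 against 5803, 8108, 6735 and 8973, so mice 6 and 8 were far below all others while mouse 2 lay among the low-Iigp1 livers. Acot1, a cytosolic acyl-CoA thioesterase, had the same order, with 374.9, 149.2, 79.0 and 87.5 against 358.6, 401.3, 363.9 and 455.9. Ppara itself overlapped, at 2245, 3038, 343.8 and 1984 against 683.2, 1207, 427.0 and 988.7. The count was 7 without mice 6 and 8, 14 without mice 1 and 2, and 11 and 12 without mouse 1 or mouse 2 alone.

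Synthesis of fatty acids and triglycerides held 3 lower genes of 23 and 0 higher, with a median of -0.23 and scores that did not overlap. Beside Thrsp, Gpam, the first step of triglyceride synthesis, was 1.30-fold lower and Mgll, monoacylglycerol lipase, 1.54-fold. Fasn, fatty acid synthase, overlapped through mouse 2, with 1488, 1249, 1154 and 1192 against 1471, 2089, 1574 and 1428. Elovl6, an elongase, was at 711.6, 450.5, 269.0 and 400.7 against 708.7, 660.8, 877.9 and 957.2 and overlapped in the same way. Without mice 6 and 8 the median was -0.06. Sterol synthesis had 0 of 16 genes separated.

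Glucose metabolism had 2 lower genes of 21, 0 higher, and scores without overlap (median -0.17). Pck1, the first committed enzyme of gluconeogenesis, read 5718, 6788, 6419 and 6549 against 7838, 7849, 8365 and 7229, 1.23-fold lower. Pdhb, a subunit of the pyruvate dehydrogenase that feeds the citric acid cycle, was 1.30-fold lower, with mouse 5 at 4284 far above the rest. G6pc, the last enzyme of glucose release, varied widely within both sets, at 541.2, 1947, 4628 and 3829.7 against 2648, 1238, 4958 and 4836.

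Of 15 bile acid genes 2 were lower, 1 was higher and 12 overlapped. Cyp8b1, which makes cholic acid, read 1871, 1847, 1844 and 2117 in the high-Iigp1 livers and 2385, 2834, 2812 and 2717 in the others, 1.40-fold lower, with both sets tight. Slc10a1 (NTCP), which takes bile acids up from blood, read 8536, 7179, 6205 and 6256 against 10794, 10411, 10425 and 9251, 1.46-fold lower, and its second probe set was lower as well. Cyp7b1, the oxysterol hydroxylase of the alternative pathway, was the higher gene, at 478.6, 602.6, 455.9 and 665.1 against 422.8, 415.4, 329.7 and 358.1, 1.43-fold higher, in both of its probe sets. Cyp7a1, the rate-limiting enzyme of the classical pathway, overlapped, with 933.6, 723.2, 257.7 and 950.4 against 1000.4, 921.5, 336.7 and 917.2.

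Amino acid breakdown had 2 lower genes of 36, Oat and Agxt (which clears glyoxylate, 1.48-fold), and 0 higher. In the methionine and glutathione list of 16, the pair of subunits of glutamate-cysteine ligase, the rate-limiting enzyme of glutathione synthesis, was higher. Gclc read 2877, 2231, 3621 and 3216 against 1957, 1865, 1874 and 2188, a difference of 0.58, and Gclm 2361, 1957, 2262 and 2441 against 1882, 1916, 1733 and 1812, 1.23-fold higher, with mouse 3 only just above mouse 4. Ahcy, which removes S-adenosylhomocysteine, was 1.28-fold lower, and so was 1 of its other 2 probe sets.
Of the antioxidant list of 21, Txn1 (thioredoxin) was 1.36-fold higher and Sod1 (cytosolic superoxide dismutase) 1.22-fold lower, while Gclc and Gclm belong to it too. Other drug metabolism enzymes had 4 lower genes of 48 and 0 higher, namely Gstk1 (1.49-fold), Gsto1 (1.42-fold), Gstm6 (1.25-fold) and Adh5 (1.12-fold). The second probe set of Gstm6 overlapped (-0.27). Cytochromes P450 of families 1 to 3 had 0 of 21 separated, and Cyp2e1, the brightest, read 24349.9, 29133, 19662 and 22019 against 26546, 25360.5, 26808 and 20848.

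Secreted hepatocyte products did not share one direction. Of 32 plasma protein genes 2 were lower, Apoa5 (which promotes triglyceride clearance, 1.22-fold) and Angptl4 (an inhibitor of lipoprotein lipase, 1.23-fold), and 1 was higher, Serpina10 (1.21-fold). The Angptl4 probe set shares probes with related transcripts, and its second one overlapped (-0.24). Alb, albumin, overlapped at 29337, 35343, 23417 and 24664 against 33756, 28013, 34616 and 24878. Of 26 acute phase genes 2 were higher, and 23 had a higher mean (median 0.29). Apcs, serum amyloid P, read 1899, 4189.8, 4046 and 4599 against 1813, 1701, 1343 and 1537, 2.20-fold higher, with mouse 2 barely above mouse 1. Itih4 was 1.19-fold higher. Lcn2, lipocalin-2, overlapped with a wide spread, at 362.3, 2450.5, 9515 and 9797 against 1483, 287.3, 329.6 and 179.8, mouse 1 lying above mouse 2.
Of 31 complement and coagulation genes 4 were higher, beside 3.01% of the brightest quintile: Cfp (properdin, 2.49-fold, made by myeloid cells), C4bp (1.40-fold), Serping1 (the C1 inhibitor, 1.38-fold) and C1ra (1.35-fold), and Serpinf2 (alpha-2 antiplasmin) was 1.22-fold lower. Serping1 read 9671, 8918, 11924 and 11176 against 8294, 6805, 8094 and 7031, and C4bp 5388, 5670.5, 7100.0 and 8097 against 4855, 4549.8, 4749.5 and 4353. Both genes spread less within each set than Lcn2 did.

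Identity genes of hepatocytes did not separate. Of 8 pan-hepatocyte markers 0 were lower and 0 higher, with a median of -0.09, and their summed intensity ran from 119456 to 154776 in the high-Iigp1 livers and from 121763 to 156951 in the others. Of 31 liver transcription factors and nuclear receptors 0 separated (median -0.03). Cebpa, a factor for metabolic genes, overlapped, with 11179, 9745, 8151 and 7613 against 11714, 10362, 13072 and 9077. Hnf4a, the main hepatocyte nuclear receptor, read 1096, 702.5, 845.3 and 1308 against 913.8, 891.0, 265.9 and 1102, with mouse 5 far below the rest.
Of 21 genes of the growth hormone, IGF and insulin axis 1 separated, Cyp7b1, which is also on the bile acid list and is known to be regulated by growth hormone. In the thyroid-responsive list of 11, Thrsp was lower and Bcl3 higher. Iron and heme handling gave 3 lower genes of 23 and 0 higher, with Urod (heme synthesis) 1.24-fold and Ireb2 (an iron sensor that stabilises Tfrc mRNA) 1.39-fold lower beside Tfrc. Ireb2 read 566.4, 355.6, 568.0 and 518.2 against 572.0, 774.1, 712.7 and 691.8, so mice 6 and 2 nearly reached mouse 1.

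Among lists not tied to hepatocytes, few genes separated. Herpud1 and Atf4, both of the unfolded protein response, were 1.31-fold and 1.26-fold lower, the only separated genes of 34, and Cct4 and Tcp1, chaperonin subunits, were the only ones of 26 chaperones. Cry1 (1.33-fold) and Tef (1.36-fold) were the lower genes of 13 clock genes, and the hour of death is not in the labels. The Cry1 probe set shares probes with related transcripts. Psma1 and Psma5 of 30 constitutive proteasome genes were higher, by 1.24-fold and 1.26-fold. Ribosomal proteins split 1 higher (Rpl37a) and 1 lower (Rpl22, whose second probe set went the other way at 0.11) of 24. Translation factors had Eif2s3x and Eif3a lower of 25. Cell cycle genes (23) and immediate early genes (13) had 0 separated, and of 17 p53 targets Mcl1, which guards against apoptosis, was 1.27-fold higher.
The lysosomal list of 32 had 5 higher genes and 1 lower, beside 2.91% and 4.20% of all genes, and its scores did not overlap. Ctsc, a protease that activates granule enzymes of leukocytes, read 580.9, 379.0, 2649 and 1624 against 308.3, 279.6, 298.3 and 228.6, 3.56-fold higher, while Lgmn (1.80-fold), Psap (1.54-fold), Laptm4a (1.45-fold) and Ctsz (1.25-fold) were nearer to 1. Of the other 2 Psap probe sets neither separated.

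Of 35 listed macrophage and Kupffer cell markers 32 had a probe set and 28 were bright enough. Of these 28, 8 were higher (Csf1r, C1qa, C1qb, C1qc, Mpeg1, Itgb2, Cybb and Ctss), beside 2.91% of all genes. The other 20 overlapped and 0 were lower, while 27 of the 28 had a higher mean, with a median of 1.38. Ctss also stands on the MHC class II list left out above, and Itgb2 and Cybb were bright enough only through the high-Iigp1 livers. Their summed intensity was 19680 to 64119.5 in the high-Iigp1 livers and 11220 to 15774 in the low-Iigp1 livers, and 0 members were at the floor in all mice. Csf1r, the receptor on which macrophages depend, read 912.8, 900.6, 3029 and 1514 against 603.8, 660.5, 796.8 and 585.3, 2.12-fold higher. Adgre1, a pan-macrophage surface receptor, and Cd68 overlapped, and so did Clec4f, which marks Kupffer cells, at 1362, 1013, 1221 and 747.0 against 524.3, 827.9, 916.7 and 996.9. The median was 0.60 without mice 6 and 8, and the count was 16 without mouse 1 or mouse 2 and 14 without mouse 3.
The macrophage score, at 1.72 in mouse 6 and 1.06 in mouse 8 against 0.02 and -0.10 in mice 3 and 2, had its extremes in the same livers as the low scores of the citric acid cycle, fatty acid oxidation and PPAR alpha lists. Its part in the lower hepatocyte genes was not tested. The pan-hepatocyte scores of mice 6 and 8 were -0.12 and -0.07, beside -0.10 and -0.06 in mice 5 and 7 of the low set. The score of mouse 5 includes its low Hnf4a value of 265.9. By summed intensity, mouse 5 was highest at 156951, while mice 6, 8 and 7 were at 119456, 119773 and 121763.

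Markers of other cells mostly overlapped. They are counted here as those bright enough, of those with a probe set. Of T and NK cell markers 5 of 23 were bright enough, of neutrophils 3 of 13, and of B and plasma cells 7 of 12. For endothelium it was 8 of 16, for stellate cells and matrix 25 of 39, and for erythrocytes and platelets 4 of 9. For exocrine pancreas it was 4 of 8, and for adipocytes 3 of 7. Each of these lists had 0 separated genes. Of 3 cholangiocyte markers bright enough, of 10 with a probe set, 1 separated, Krt18, 1.25-fold higher. Krt18 is in the brightest quintile and also on the fetal liver list, classed as hepatocyte, so it does not single out cholangiocytes. The T and NK sum was 1147.6 to 3643 in the high-Iigp1 and 887.8 to 1646 in the low-Iigp1 livers. Ccl5, a T cell and interferon-related chemokine, read 30.0, 534.3, 2069 and 1685 against 387.2, 17.6, 21.6 and 15.1, with mouse 2 among the dim livers and mouse 1 among the bright. Of 19 genes of TNF, IL-1 and NF-kB signalling 5 were higher, Bcl3, Vcam1 (2.50-fold), Il18 (1.47-fold), Birc3 (1.73-fold) and Il18bp, beside 2.91% of all genes, and the scores did not overlap. Vcam1 was bright enough only through the high-Iigp1 livers. Cxcl1, a neutrophil attractant, was 2.19-fold higher, 1 of 8 chemokine genes.
Of 19 fetal liver and tumour-associated genes 5 were higher, beside 2.91% of all genes. They were the actin-binding thymosins Tmsb4x and Tmsb10 (2.31-fold), S100a6 (2.50-fold), Alcam (1.78-fold) and Krt18, several of which leukocytes or duct cells are also known to express. S100a6 was bright enough only through the high-Iigp1 livers. The score of the list was 1.05 and 0.61 in mice 6 and 8 and 0.21 and -0.35 in mice 3 and 2, against -0.51 to -0.22 in the low-Iigp1 livers, so mouse 2 stood among the latter.

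**Figure D4:**
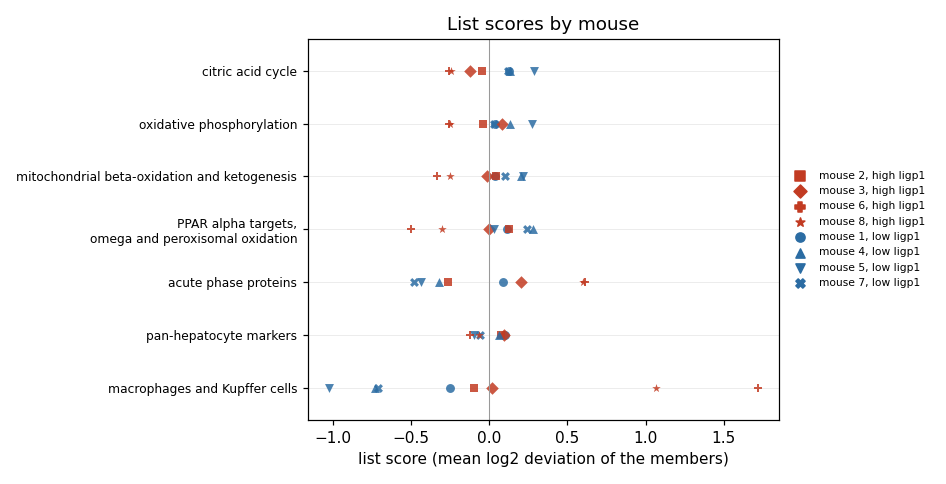
List score in each mouse (horizontal axis, average over a list's members of log2 intensity relative to each member's average across mice) for 7 lists. Red symbols are the high-Iigp1 and blue symbols the low-Iigp1 livers. Scores separate by set for the citric acid cycle and, in the other direction, for macrophages, while pan-hepatocyte scores span a range of 0.226 and are mixed.

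Over the 44 lists outside both families, 30 had a median below 0, and 6 had scores with no overlap between the sets. Those 6 were the citric acid cycle, fatty acid and triglyceride synthesis and glucose metabolism on the lower side, and macrophages, NF-kB signalling and lysosomal proteins on the higher side. In the other 38 lists at least 1 liver of one set lay within the range of the other. Without mice 1 and 2, the pair nearest the threshold, 552 genes were higher and 655 lower. Without mouse 1, 2 or 3 alone, 308, 365 and 232 genes were higher and 371, 474 and 338 lower, and without mouse 6 alone 213 were higher. Fewer livers then had to lie apart.

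**Figure D5:**
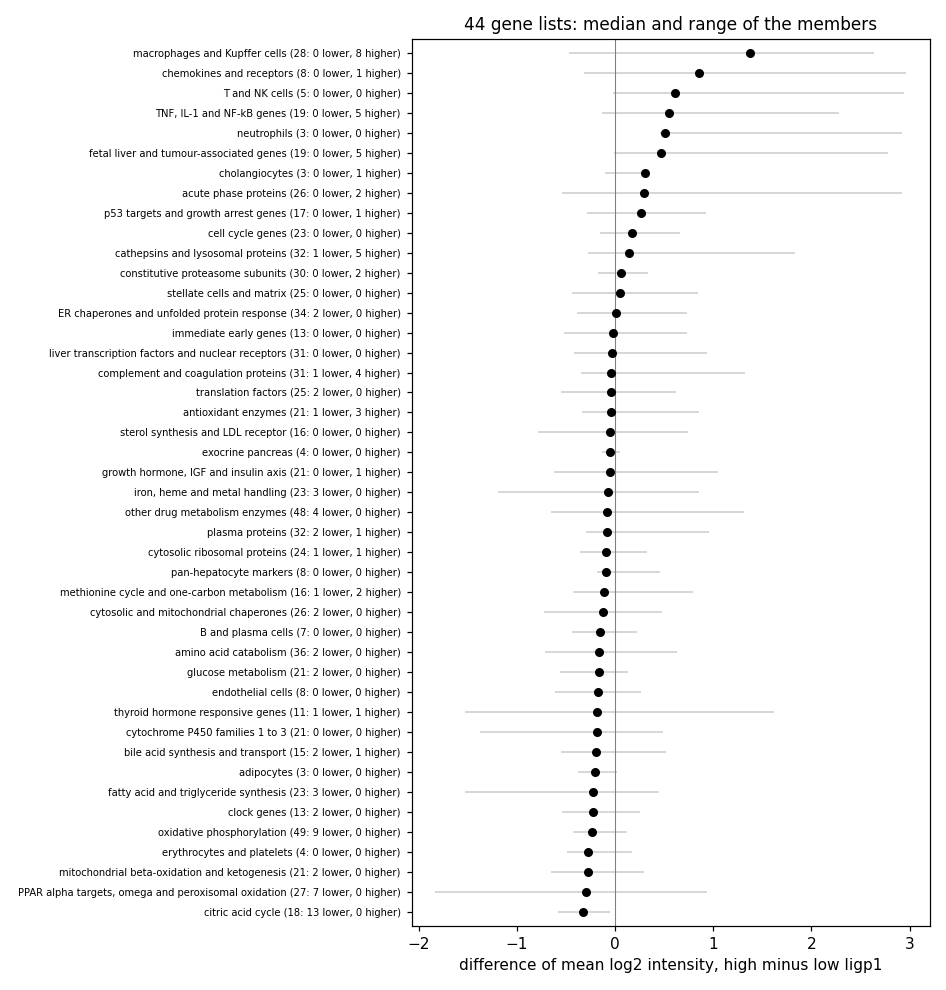
Median (black point) and range (grey line) of the difference in mean log2 intensity, high-Iigp1 minus low-Iigp1 livers (horizontal axis), over the measured members of 44 gene lists, with the number measured and the numbers lower and higher with no overlap in brackets. The citric acid cycle has the lowest median, -0.33, and the macrophage list the highest, 1.38.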

How the data were processed

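The authors deposited an intensity for each probe set in each mouse, linear and already scaled between arrays to one trimmed mean. The software for summarising probes was not given in the sources used here. Of 12488 probe sets, 66 controls were left out. GEO's platform annotation gave 1 gene symbol to 10855, several to 396 and none to 1237, and those with several were not named. Of 4869 measured genes 4862 were found in RefSeq's gene table, with 0 symbols changed.

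Values below 37.2, their 25th percentile, were set to 37.2 before log2 was taken. A probe set was kept where its average over all 8 mice reached 165.2, the median over the table. The brightest one stood for its gene. A gene dim in one set could thus pass through the other alone. Among genes without overlap named by the rule below, Vnn1 did so through the low set. Ms4a6c, Cybb, Itgb2, Cd48, Fgl2, Hcls1, S100a6 and Vcam1 did so through the high set. Their place in the counts owes to the set in which they are bright. A gene was called lower or higher where the 4 livers of one set lay beyond the 4 of the other. No p-value was computed, because the sets were made from a measured value, and the spread is given as the 4 values of each set. All 8 mice are separate animals, per the labels, with 1 array each, so the number of arrays limits the precision, and 0 array pairs were identical. The labels name no scan date or other batch.

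Of 46 gene lists, 2 (60 measured genes) were left out as the interferon and MHC class II families. The members, the lists and the threshold were chosen with earlier results of these data known. Genes were named by a rule: the 12 largest differences without overlap in each direction over all genes and again over the hepatocyte lists, up to 3 separated members of each list or else its brightest, Iigp1, and the pan-hepatocyte markers, 107 genes in all. Other genes, and the lists described at most length, were chosen after their values were seen. Alternatives were another floor, filter or scaling, all probe sets of a gene, no shared probe sets, and leaving out mice. The code was tested on simulated data. Python 3.11.15 with numpy 2.4.6, pandas 2.3.3 and matplotlib 3.10.9 was used.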

Additional observations from a re-analysis of the deposited data

Results flagged for a closer look

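In each named gene and each list score, a mouse was marked where it stood farther from its neighbour, as a share of the range, than Dixon's critical value allows, and chance alone marks about 1 group in 20. Of 153 items (107 genes and 46 list scores) 8 were marked, about as many as that rate gives, and 5 of those were in mouse 5. That liver had the high Gapdh 3' over 5' ratio, while its actin ratio was within the range of the others, and the part of RNA quality was not tested. In mouse 5, Hnf4a, the hepatocyte nuclear receptor, read 265.9 against 702.5 to 1308 in the other 7, and the fibrinogen chain Fgb read 6095 (6094.6) against 8538 to 11028. Col18a1, a basement membrane collagen, read 3831 (3831.4) in the same mouse against 4778 to 5788. Mouse 5 was above the others in Pdhb, at 4284 (4283.8) against 2142 to 2853, and in the tryptophan dioxygenase gene Tdo2, at 29425 (29425.3) against 19827 to 23897. Mouse 6 stood apart in the bile acid score, at -0.301, and in the thyroid-responsive score, at -0.487. Mouse 7 stood apart in the complement and coagulation score, at -0.108.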

How the results depend on the processing

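The count of 140 higher genes was 91 with the filter on dim probe sets at 2 times the median, and 29 of the brightest quintile, where 78 of the 202 lower genes lie, because fewer genes were compared. Leaving out a mouse can only keep or raise such counts, by construction, since fewer livers must not overlap. Without each mouse in turn, higher genes numbered 158 to 365 and lower genes 246 to 474. Without mice 6 and 8 there were 321 higher and 399 lower, and without mice 1 and 2, 552 and 655. Higher macrophage markers (8) numbered 8 to 16 without each mouse and 19 without mice 1 and 2. Lower PPAR alpha genes (7) numbered 7 to 12, and 14 without mice 1 and 2. Lower oxidative phosphorylation genes (9) numbered 9 to 22, and 15 without mice 1 and 2. Lower citric acid cycle genes (13) numbered 13 to 15. Without mice 6 and 8 the median was -0.0584 for fatty acid and triglyceride synthesis (-0.23), -0.0922 for beta-oxidation (-0.28) and 0.60 for macrophages (1.38). A turn of sign was counted only for genes with no overlap and for lists whose median exceeded the SD of their score within the sets. By this rule the sign turned for Sac3d1 without shared probe sets (0.20), for 3 adipocyte markers with all probe sets averaged (median 0.0237) and for 3 cholangiocyte markers without mice 6 and 8 (median -0.0191). The cause was not tested. Of 1904 recomputed gene differences 1864 stayed within 1 SD of their value, 39 moved further and 1 turned by this rule. Sign changes in genes that overlapped are among those that stayed or moved. Alb, for example, went from -0.11 to 0.10 without mice 6 and 8. Of 828 recomputed list medians 791 stayed, 35 moved further and 2 turned by the same rule. No paired analysis was possible because the labels give 1 group. Differences near the floor of 37.2 are understated.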
